A study of Homo sapiens with 10 samples.

Results

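The mitochondrial respiratory chain beyond complex I, together with the ATP synthase, was followed through the nuclear genes that encode its subunits. The members were a list of 41 gene symbols covering succinate dehydrogenase (complex II, 4 genes), the cytochrome bc1 complex (complex III, 9 genes), cytochrome c oxidase (complex IV, 12 genes) and the F1Fo-ATP synthase (complex V, 16 genes). Each symbol was matched to the Ensembl identifier used in the count data, with older ATP5 names read as the same genes, and all 41 were found among 63677 gene identifiers. All 41 also passed the filter on low counts that left 16756 genes for testing.

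Respiratory complexes hand electrons from metabolites to oxygen across the inner mitochondrial membrane and build a proton gradient, which the ATP synthase uses to make ATP. Complex II oxidises succinate within the citric acid cycle and is encoded wholly in the nucleus, whereas complexes III, IV and V combine nuclear subunits with subunits from mitochondrial DNA, so that the catalytic core of complex IV is not nuclear. Around the catalytic subunits sit small accessory proteins that take part in assembly, stability and dimerisation, and BCL-2 itself acts at the outer membrane of the same organelle.

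RNA was sequenced from 10 lines derived from RS4;11, an established B-cell precursor acute lymphoblastic leukaemia line that carries a KMT2A::AFF1 fusion. VENins lines 1 to 5 had been grown in parallel under stepwise rising concentrations of venetoclax (VEN), a selective BCL-2 inhibitor, until they tolerated it, and VENsens lines 1 to 5 were grown alongside them in the DMSO solvent alone. By the study's account, among these lines only the VENins ones had VEN in their medium during culture. A wash took the drug off ahead of each measurement. Each line gave 1 library. The comparison of VENins with VENsens lines asks how expression differs between lines that had acquired insensitivity and lines that had not. Because VENins lines were also exposed to VEN until the wash, effects of acquired insensitivity and of ongoing exposure cannot be told apart. Lines of the same number were treated as pairs, following the paired analysis that the study describes. Every line came from one parental culture, so p-values measure the spread between these lines and not between patients.

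Reads assigned to genes numbered 24010870, 20631907, 28323643, 22975240 and 25153892 in VENsens lines 1 to 5 and 21145316, 24611645, 24664204, 25394653 and 23317821 in VENins lines 1 to 5. Between 52.7 and 54.2% of the sequenced reads fell on genes in each library. At this depth the member with the fewest reads, ATP5ME, had 365 to 704 reads per library, and the one with the most, ATP5F1B, had 18097 to 26949. Levels are given below as CPM, counts scaled to 1000000 reads per library with trimmed-mean (TMM) factors. All 37 genes of the mitochondrial chromosome were listed at 0 in every library, the 6 mitochondrially encoded subunits of complexes III to V among them, so only the nuclear side of these complexes was measured.

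Markers of the labelled cell type were present in all lines. Of 10 B-cell precursor markers 9 were tested, and the list summed to 3329, 3229, 3204, 3293 and 3263 CPM in VENsens lines 1 to 5 and 3183, 3312, 3209, 3127 and 3662 CPM in VENins lines 1 to 5. The most abundant was IGLL1 at a mean of 723 CPM, while CD34 had 8 reads over all libraries. Among them the B-lineage transcription factor PAX5 was lower in all 5 VENins lines than in their VENsens counterparts, with 783 ± 42.9 against 631 ± 34.7 CPM (SD, n = 5) and a log2 fold change of -0.31 (edgeR quasi-likelihood, Benjamini-Hochberg adjusted p = 0.0272). The 5 markers of KMT2A-rearranged leukaemia summed to 1074 ± 32.7 CPM over VENsens and 1038 ± 15.4 CPM over VENins lines (SD, n = 5), led by PROM1, and none passed the test. Markers of T cells (led by CD3E, with CD8A at 0) stayed at or below 1.08 CPM in sum. Mesenchymal markers (led by COL1A1, with DCN and LUM at 0) stayed at or below 3.34 CPM. Myeloid markers summed to 7.41 to 12.6 CPM, nearly all from CSF1R, with S100A8 and S100A9 at 0. In bulk RNA from a culture, fewer cells of a kind and less RNA per cell cannot be told apart.

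Some libraries stood apart, and this bears on every value below. The members together took 0.628, 0.577, 0.654, 0.619 and 0.630% of gene counts in VENsens lines 1 to 5 and 0.662, 0.697, 0.672, 0.668 and 0.657% in VENins lines 1 to 5. The means were 0.622 ± 0.0281% and 0.671 ± 0.0156% (SD, n = 5). VENsens line 2 was the lowest and VENins line 2 the highest of the 10, and the groups did not overlap, although VENsens line 3 came within a small margin of VENins line 5. Averaged over the subunits of complex V, log2 CPM stood away from the 10-library mean by -0.046, -0.22, 0.025, -0.10 and -0.043 in VENsens lines 1 to 5 and 0.041, 0.17, 0.10, 0.047 and 0.030 in VENins lines 1 to 5. In that complex the groups did not overlap, although VENsens line 3 reached close to VENins line 5, and line pair 2 spanned the whole range. The same quantity over complex IV was -0.050, -0.20, 0.032, -0.10 and -0.048 in VENsens lines 1 to 5 and 0.025, 0.18, 0.065, 0.046 and 0.046 in VENins lines 1 to 5, and there VENsens line 3 lay above VENins line 1. Over complex III it was -0.052, -0.20, -0.0062, -0.083 and -0.054 in VENsens lines 1 to 5 and 0.036, 0.14, 0.076, 0.045 and 0.10 in VENins lines 1 to 5. Over complex II it was -0.066, -0.076, -0.012, -0.071 and -0.039 in VENsens lines 1 to 5 and 0.037, 0.053, 0.074, 0.061 and 0.040 in VENins lines 1 to 5. The low value of VENsens line 2 and the high value of VENins line 2 recurred in complexes III, IV and V and were small in complex II, and VENins line 5 stood higher in complex III than in the others. Short genes outside the members moved with them: the median of 783 other tested protein-coding genes of up to 150 residues stood away from the 10-library mean by -0.034, -0.11, 0.0026, -0.051 and -0.038 in VENsens lines 1 to 5 and 0.020, 0.11, 0.047, 0.023 and 0.035 in VENins lines 1 to 5. The part of that shift in the members' differences was not tested.

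**Figure D1:**
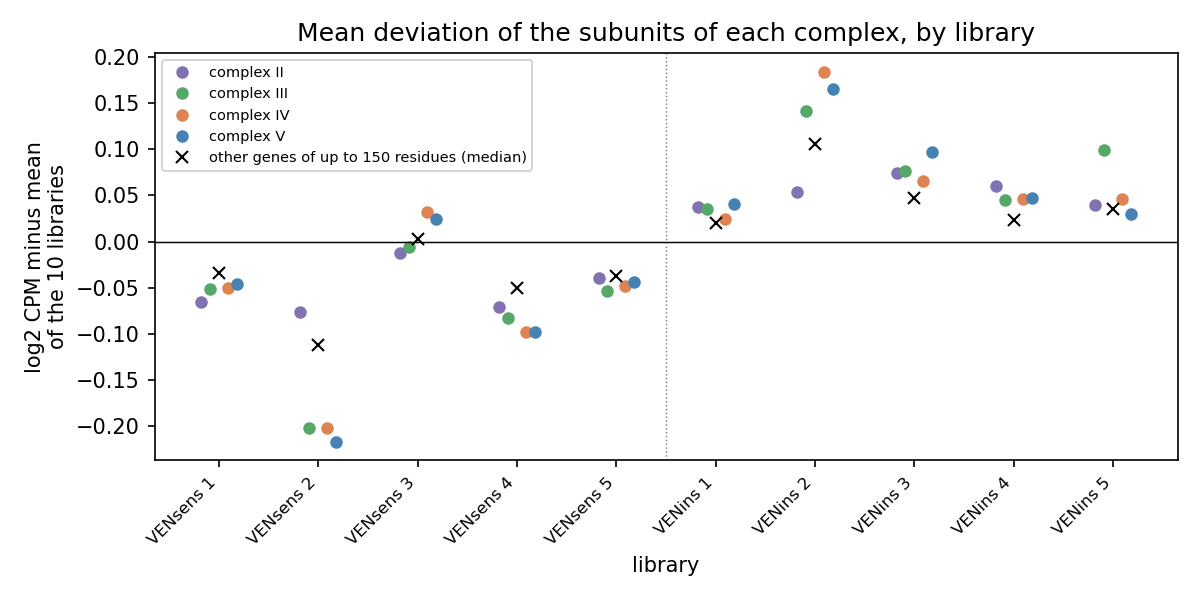
Mean deviation of log2 CPM from the 10-library mean (vertical axis) over the subunits of complexes II, III, IV and V in each library (coloured points), with the median of other protein-coding genes of up to 150 residues as crosses. VENsens 2 lies lowest in complexes III to V, down to -0.22, and VENins 2 highest, up to 0.18; the crosses follow the same order for that pair.

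Most subunit genes had slightly higher counts in VENins lines, and none of these differences passed the test over all genes. The log2 fold change of VENins against VENsens, from edgeR's two-sided quasi-likelihood test with the line number in the model, lay above 0 for 39 of the 41 members (38 to 41 over the other settings), where 51.1% of all tested genes lay above 0. The median over the members was 0.14, against the 0.0035 of all tested genes, and single members ran from -0.0044 for ATP5F1A to 0.31 for ATP5ME. With Benjamini-Hochberg adjustment over all genes, edgeR called 0 members at an adjusted p under 0.05, with 27 higher and 0 lower at an unadjusted p under 0.05, and adjusted p-values ran from 0.0878 to 0.99. The same fit called 33 genes in all (0.197%), 6 higher (0.0358%) and 27 lower, a split that was 71 to 84 with length and GC trends taken out of each library. It put 1306 genes (7.79%) higher at an unadjusted p under 0.05. In 21 members all 5 VENins lines lay above the VENsens line of the same number, as did 7.61% of tested genes, and in 8 members the groups did not overlap, against 2.36% of tested genes. Those without overlap were SDHB, UQCRFS1, UQCRB, UQCRQ, UQCR10, COX6A1, COX7C and ATP5MF, each higher in VENins.

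How many members passed depended on the tool and the filter. DESeq2 called 2 members with the line number in its model, UQCRB and ATP5F1E, among 217 genes (67 higher and 150 lower). Without the line number DESeq2 called 13 members, all higher, where 2.14% of genes were called higher. That share is over 16756 genes, of which 4550 got no adjusted p in this fit and could not be called. In contrast, edgeR without the line number called 0 members among 149 genes, with 26 members and 3047 of 16756 genes at an unadjusted p under 0.05. When genes with few counts were kept, edgeR called 9 members, all higher, against 0.702% of genes called higher. That share is over 32884 genes, those with few counts included, whereas no member had few counts. Line pair 2 weighed most: the median difference within a pair was 0.10, 0.35, 0.057, 0.14 and 0.061 for pairs 1 to 5, with 30, 41, 29, 40 and 31 of 41 members higher in the VENins line. Without pair 2 the members' median was 0.10 and 12 members had an unadjusted p under 0.05 (0 called by edgeR), where 1411 of 16770 genes had such a p and 6 were called, and 38 members lay above 0. In fits without the line number, chosen after seeing the data, the median was 0.12 without VENsens line 2 and 0.12 without VENins line 2. Leaving out VENins line 5 in the same way gave 0.15 with 7 members called among 502 genes.

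**Figure D2:**
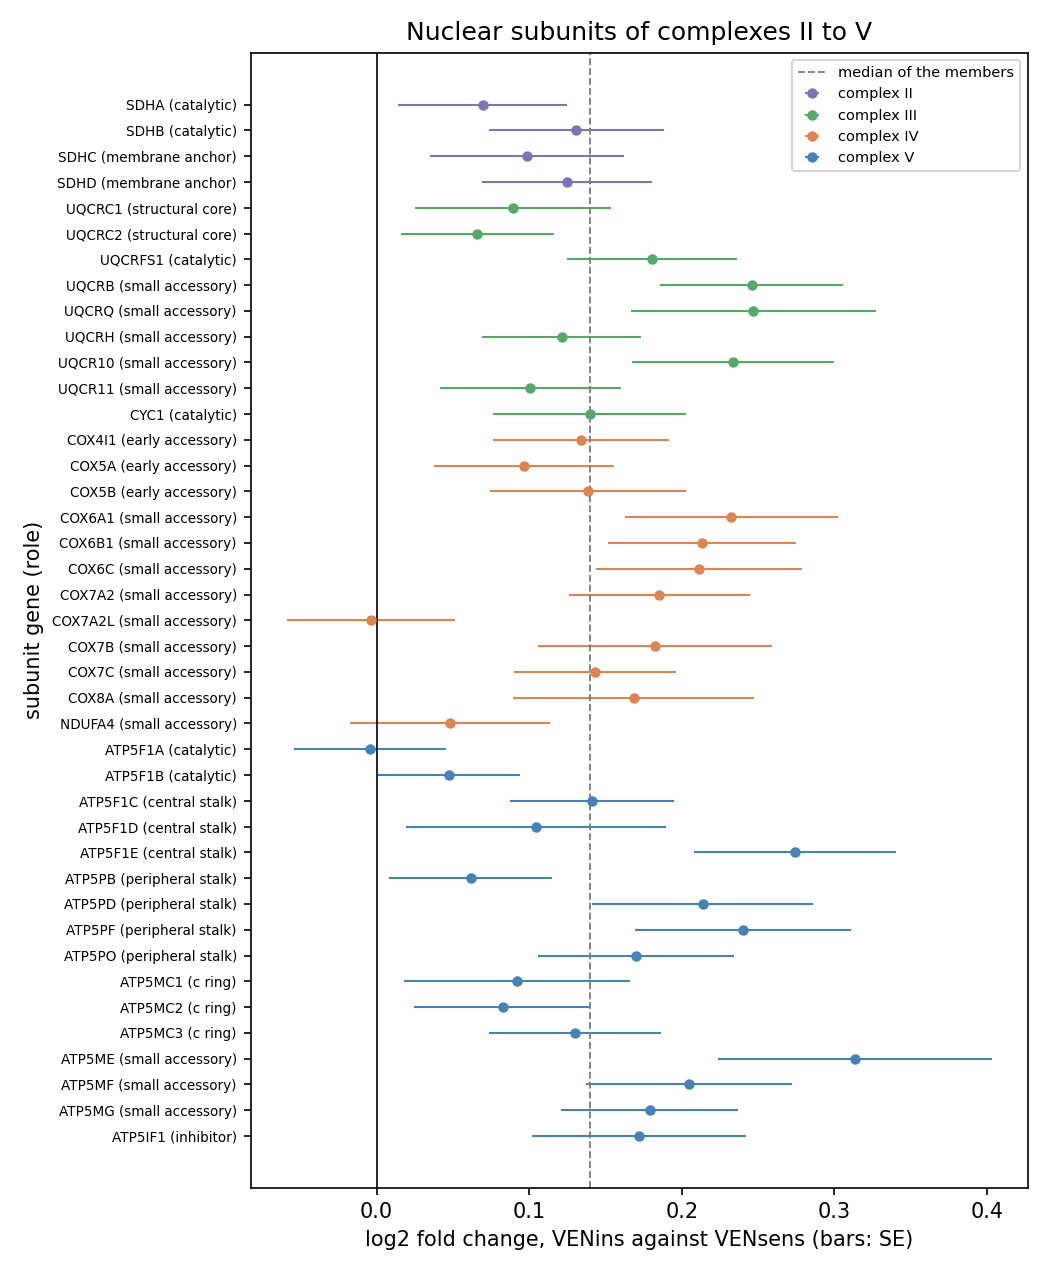
Log2 fold change of VENins against VENsens for each of the 41 subunit genes with its standard error (horizontal axis), coloured by complex, each named with its role; the dashed line marks the members' median of 0.14. All but COX7A2L and ATP5F1A lie above 0, and ATP5ME and ATP5F1E lie farthest to the right.

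Most members had log2 fold changes above 0, which did not pass edgeR's test with the line number over all genes. The bases before the members' start sites were read for short motifs of factors known to regulate nuclear genes of the respiratory chain. RefSeq promoter windows on GRCh38.p14, from 250 bases before to 50 bases after a start, were found for 32 members (38 starts). In all, 7 motifs were searched on both strands of these windows and of all 35116 windows in the table. An ETS-type core, CCGGAAG, the kind of sequence that GABPA binds, was in the windows of 15 of the 32 members, in 42.1% of their starts and 10.3% of all starts. The NRF1-type sequence GCGCATGCG, nearly its own reverse complement, so that one site can match on both strands, was in 6 members (15.8% of starts against 1.92%), namely ATP5F1C, ATP5MC2, ATP5ME, ATP5PF, COX6A1 and SDHD. The YY1-type AAGATGGCG was in 3 members (10.5% of starts against 1.75%) and the ERR-type TCAAGGTCA in 1, SDHD (2.63% against 0.353%). For comparison, the GC box GGGGCGGGG was in 10.5% of member starts and 15.7% of all starts, the CCAAT box CCAAT in 39.5% and 34.6%, and the TATA-type TATAAA in 7.89% and 11.5%. A match is a run of letters in the window, and no binding was measured in these lines.

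The 120 bases before the start are shown for the 5 members whose printed window holds the ETS-type core and no more than 30 bases of any annotated exon, and for UQCR10, a small complex III subunit with none of the first 4 motifs there. They lie at chr2:97645942-97646061 (+) for COX5B, chr19:1605463-1605582 (-) for UQCR11, chr12:120437993-120438112 (+) for COX6A1, chr11:63974500-63974619 (+) for COX8A, chr17:75046970-75047089 (-) for ATP5PD and chr22:29767249-29767368 (+) for UQCR10, on GRCh38.p14 from RefSeq, each written 5′ to 3′ on the gene's strand and ending at the base before the start, with capitals marking CCGGAAG or its reverse complement.
COX5B: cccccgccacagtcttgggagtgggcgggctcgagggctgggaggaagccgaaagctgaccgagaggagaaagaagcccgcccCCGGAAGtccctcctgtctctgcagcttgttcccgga
UQCR11: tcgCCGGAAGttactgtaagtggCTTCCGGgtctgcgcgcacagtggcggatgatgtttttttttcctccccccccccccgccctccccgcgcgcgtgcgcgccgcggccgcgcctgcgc
COX6A1: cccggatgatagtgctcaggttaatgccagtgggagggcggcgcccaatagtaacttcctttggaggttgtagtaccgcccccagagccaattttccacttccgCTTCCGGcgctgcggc
COX8A: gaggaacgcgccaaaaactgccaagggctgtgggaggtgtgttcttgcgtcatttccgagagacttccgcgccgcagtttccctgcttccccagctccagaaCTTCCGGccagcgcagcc
ATP5PD: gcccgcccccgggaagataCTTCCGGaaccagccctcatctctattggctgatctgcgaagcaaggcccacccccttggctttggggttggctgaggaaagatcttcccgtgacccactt
UQCR10: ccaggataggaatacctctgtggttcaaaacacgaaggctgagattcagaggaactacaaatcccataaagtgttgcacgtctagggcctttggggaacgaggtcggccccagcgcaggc

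Among them, COX6A1 and UQCR10 were in the group without overlap (log2 fold changes 0.23 and 0.23), while UQCR11 with a pair of matches was at 0.10, COX5B at 0.14, COX8A at 0.17 and ATP5PD at 0.21. Whether a match goes with the size of the difference was not tested.

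In complex II all 4 genes lay above 0, with log2 fold changes from 0.070 to 0.13 (median 0.11). The 2 with an unadjusted p under 0.05 were SDHB and SDHD, where 7.79% of all tested genes were higher at such a p. SDHA (ENSG00000073578), the flavoprotein that oxidises succinate, had 137, 128, 136, 137 and 132 CPM in VENsens lines 1 to 5 and 134, 139.8, 138, 137 and 155 CPM in VENins lines 1 to 5. Its values overlapped between groups, and VENins line 5 was the highest. The means were 134 ± 3.89 CPM over VENsens and 141 ± 8.11 CPM over VENins lines (SD, n = 5), with log2 fold change 0.070 (SE 0.055), higher in 3 of 5 line pairs (edgeR quasi-likelihood, Benjamini-Hochberg adjusted p = 0.57), and without line pair 5 the log2 fold change was 0.029. SDHB (ENSG00000117118), the iron-sulphur subunit that carries electrons on from SDHA, had 49.7, 46.5, 50.5, 48.5 and 51.3 CPM in VENsens lines 1 to 5 and 55.9, 53.6, 53.7, 55.5 and 51.4 CPM in VENins lines 1 to 5. Each VENins line lay above every VENsens line, although VENins line 5 did so by little. This gave log2 fold change 0.13 (SE 0.057), higher in 5 of 5 pairs (edgeR quasi-likelihood, Benjamini-Hochberg adjusted p = 0.28). The membrane anchors SDHC and SDHD, which hold the haem and the ubiquinone site, had log2 fold changes of 0.10 and 0.12 and were higher in 5 and 4 of 5 pairs. With exon length and GC trends taken out of each library SDHA stood at 0.14 and SDHC at 0.17, and with transcript length in place of exon length SDHC stood at 0.21.

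All 9 genes of complex III lay above 0 (log2 fold changes 0.066 to 0.25, median 0.14). In 4 of them the groups did not overlap, VENins being higher, as in 2.36% of all tested genes. UQCRFS1 (ENSG00000169021), the Rieske iron-sulphur protein, had 77.4, 69.6, 83.2, 77.1 and 79.6 CPM in VENsens lines 1 to 5 and 84.6, 88.5, 90.0, 85.1 and 89.8 CPM in VENins lines 1 to 5. All VENins lines were higher than all VENsens lines, among which line 2 was the lowest. The means were 77.4 ± 4.96 CPM over VENsens and 87.6 ± 2.59 CPM over VENins lines (SD, n = 5), with log2 fold change 0.18 (SE 0.056) and higher values in 5 of 5 pairs (edgeR quasi-likelihood, Benjamini-Hochberg adjusted p = 0.15). CYC1 (ENSG00000179091), cytochrome c1, which receives electrons from the Rieske protein, had 247, 199, 234, 232 and 226 CPM in VENsens lines 1 to 5 and 238, 239, 236, 246 and 294 CPM in VENins lines 1 to 5. Here VENins line 5 stood far above the other VENins lines, VENsens line 2 far below the other VENsens lines, and VENsens line 1 lay above VENins lines 1 to 4. With all lines log2 fold change 0.14 (SE 0.063) was obtained, higher in 4 of 5 pairs (edgeR quasi-likelihood, Benjamini-Hochberg adjusted p = 0.29), which became 0.080 without line pair 5 and 0.076 without VENins line 5 alone. The large core proteins UQCRC1 and UQCRC2, which are structural and related to matrix processing peptidases, had the smallest log2 fold changes of the complex, 0.090 and 0.066, and UQCRC1 stood at 0.058 without line pair 2 and 0.030 without line pair 5.

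Among the 5 small accessory subunits of complex III, log2 fold changes ran from 0.10 for UQCR11 to 0.25 for UQCRQ. UQCRB (ENSG00000156467), which binds near the ubiquinone site and is needed for assembly, had 233, 229, 241, 219 and 227 CPM in VENsens lines 1 to 5 and 259.6, 325, 290.5, 250.1 and 245 CPM in VENins lines 1 to 5. The groups did not overlap, with VENins lines 2 and 3 highest and VENins line 5 nearest to the VENsens range. Means of 229.8 ± 8.31 CPM over VENsens and 274 ± 33.8 CPM over VENins lines (SD, n = 5) gave log2 fold change 0.25 (SE 0.060), higher in 5 of 5 pairs (edgeR quasi-likelihood, Benjamini-Hochberg adjusted p = 0.09), and over the other settings this adjusted p ran from 0.00254 to 0.49. UQCR10 (ENSG00000184076), a single-helix subunit beside cytochrome c1, had 67.1, 59.3, 71.6, 65.4 and 71.9 CPM in VENsens lines 1 to 5 and 77.7, 86.4, 77.5, 74.3 and 78.2 CPM in VENins lines 1 to 5. Again the lowest VENins line lay above the highest VENsens line, and line pair 2 was the farthest apart. The fit gave log2 fold change 0.23 (SE 0.066), higher in 5 of 5 pairs (edgeR quasi-likelihood, Benjamini-Hochberg adjusted p = 0.12), and 0.16 without line pair 2. UQCRQ (0.25) and the hinge protein UQCRH (0.12) were also higher in 5 of 5 pairs, UQCRQ without overlap. UQCRQ differed by 0.71 in line pair 2 and by 0.068 to 0.21 in the others, and its log2 fold change was 0.13 without line pair 2. A near-identical copy of UQCRH, UQCRHL, had 27336 reads over all libraries, and how far reads of the pair were told apart was not tested.

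**Figure D3:**
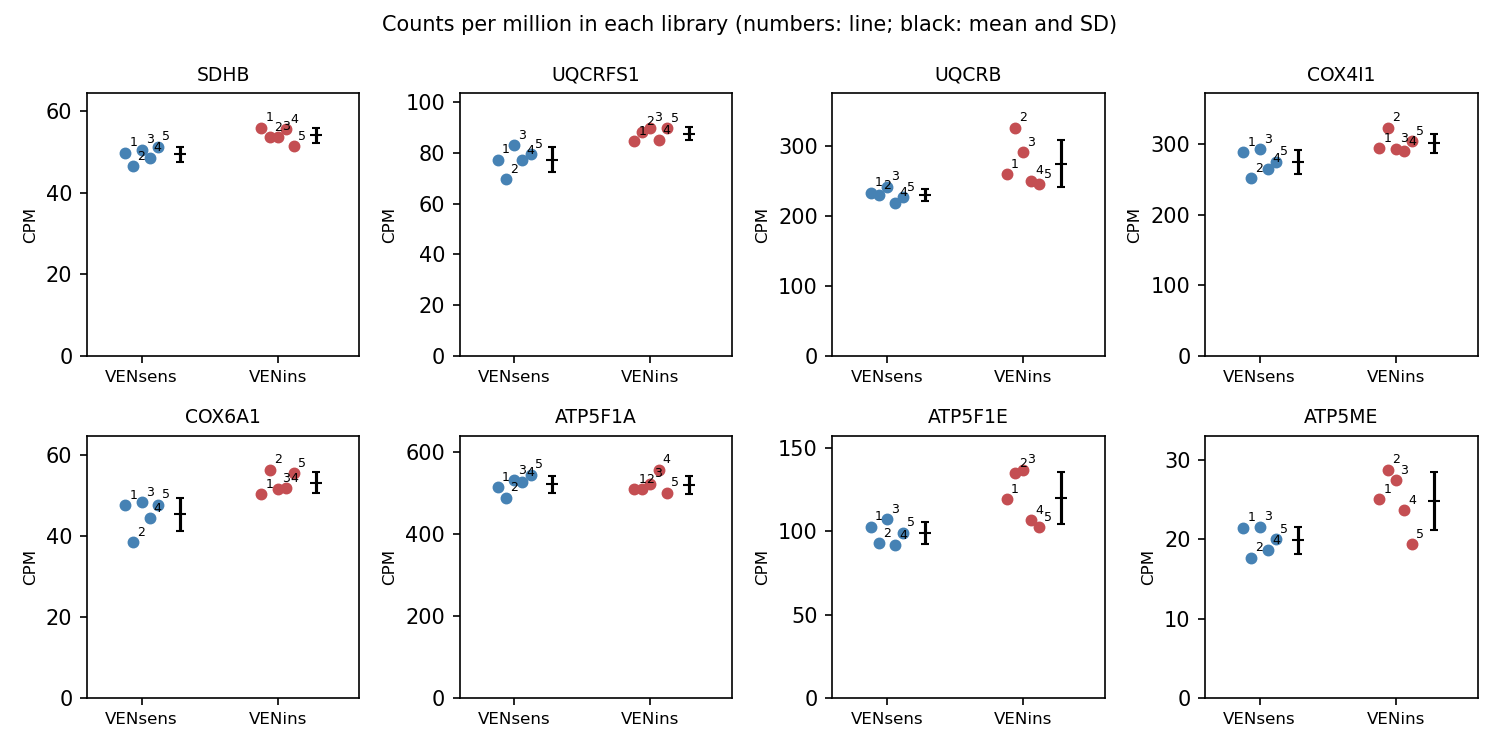
CPM (vertical axes, from 0) of some subunit genes in each of the 10 libraries, with the line number beside each point and the mean and SD of each group (n = 5) in black. SDHB, UQCRFS1, UQCRB and COX6A1 do not overlap between groups, ATP5F1A has like ranges in both, and ATP5F1E and ATP5ME overlap through the lowest VENins lines.

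Complex IV, whose catalytic subunits are mitochondrially encoded, had 11 of its 12 nuclear genes above 0 (median log2 fold change 0.16) and 9 at an unadjusted p under 0.05. All 9 were higher, as were 7.79% of all tested genes at such a p. COX4I1 (ENSG00000131143), the ubiquitous form of the first nuclear subunit to join the core, had 289, 252, 293, 266 and 276 CPM in VENsens lines 1 to 5 and 295, 324, 294, 290.4 and 305 CPM in VENins lines 1 to 5. VENsens line 3 reached into the VENins range, VENsens line 2 was lowest and VENins line 2 highest. This amounted to log2 fold change 0.13 (SE 0.058), higher in 5 of 5 pairs (edgeR quasi-likelihood, Benjamini-Hochberg adjusted p = 0.27), and to 0.077 without line pair 2. The other subunits that join early, COX5A and COX5B, had log2 fold changes of 0.10 and 0.14 (0.061 and 0.085 without line pair 2) and were higher in 3 and 4 of 5 pairs. Almost no reads were counted for the tissue isoforms COX4I2 (1 read over all libraries), COX6A2 (1), COX7A1 (8) and COX7B2 (0), so the ubiquitous forms stood for these subunits in every line.

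The 9 later and smaller complex IV subunits ran from -0.0038 to 0.23 (median 0.18). COX6B1 (ENSG00000126267), which faces the intermembrane space and links the monomers of the dimer, had 93.2, 82.2, 97.4, 88.6 and 88.0 CPM in VENsens lines 1 to 5 and 99.8, 112, 108, 94.3 and 107 CPM in VENins lines 1 to 5. Only VENins line 4 fell within the VENsens range, below VENsens line 3. The result was log2 fold change 0.21 (SE 0.062), higher in 5 of 5 pairs (edgeR quasi-likelihood, Benjamini-Hochberg adjusted p = 0.13). COX6A1 (ENSG00000111775), another dimer-interface subunit, had 47.8, 38.5, 48.4, 44.4 and 47.8 CPM in VENsens lines 1 to 5 and 50.5, 56.5, 51.8, 51.9 and 55.6 CPM in VENins lines 1 to 5. No VENins line fell within the VENsens range, whose lowest value was again line 2. Its log2 fold change 0.23 (SE 0.070) came with higher values in 5 of 5 pairs (edgeR quasi-likelihood, Benjamini-Hochberg adjusted p = 0.14), and was 0.17 when reads of its annotated pseudogenes, which held 199.9% of its own count, were added. Without line pair 2 it was 0.15. COX6C, COX7B, COX7C and COX8A had log2 fold changes of 0.21, 0.18, 0.14 and 0.17, which were 0.13, 0.11, 0.10 and 0.072 without line pair 2. NDUFA4, first assigned to complex I and later to complex IV, had a log2 fold change of 0.048, which turned to -0.0075 without line pair 2.

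COX7A2 and its relative COX7A2L had unlike values. COX7A2 (ENSG00000112695), the subunit found in complex IV itself, had 87.3, 90.6, 95.5, 90.8 and 93.2 CPM in VENsens lines 1 to 5 and 100.1, 119, 107, 101 and 95.1 CPM in VENins lines 1 to 5. VENins line 5 alone overlapped the VENsens range, at a value below VENsens line 3. COX7A2 gave log2 fold change 0.19 (SE 0.059), higher in 5 of 5 pairs (edgeR quasi-likelihood, Benjamini-Hochberg adjusted p = 0.16). COX7A2L (ENSG00000115944), the relative that tethers complex III to complex IV in respiratory supercomplexes, had 189.9, 170.1, 180.4, 162 and 169 CPM in VENsens lines 1 to 5 and 172, 180.4, 178, 177 and 161 CPM in VENins lines 1 to 5. The VENins values all lay within the VENsens range or just under it, and VENsens line 1 was the highest. COX7A2L thus had a log2 fold change of -0.0038 (SE 0.055), higher in 2 of 5 pairs (edgeR quasi-likelihood, Benjamini-Hochberg adjusted p = 0.99), with either sign across the other settings, from -0.037 to 0.031. Per 100 counts of COX7A2 there were 218, 188, 189, 178 and 181 counts of COX7A2L in VENsens lines 1 to 5 and 172, 152, 166, 176 and 169 in VENins lines 1 to 5, a ratio whose groups did not overlap and which was not tested.

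Complex V held both the largest log2 fold changes among the members and the smallest, 15 of 16 genes lay above 0 (median 0.16), and the catalytic subunits were at the low end. ATP5F1A (ENSG00000152234), the alpha subunit of the F1 head, had 514, 488, 531, 526 and 544 CPM in VENsens lines 1 to 5 and 508, 509, 522, 556 and 500.2 CPM in VENins lines 1 to 5. The ranges were almost the same, with VENsens line 2 lowest and VENins line 4 highest. Its means were 520.5 ± 21.1 CPM over VENsens and 519 ± 22.1 CPM over VENins lines (SD, n = 5), a log2 fold change of -0.0044 (SE 0.050) with higher values in 2 of 5 pairs (edgeR quasi-likelihood, Benjamini-Hochberg adjusted p = 0.98), and 0.066 once each library's trends on exon length and GC content were taken out. ATP5F1B (ENSG00000110955), the beta subunit, which carries the catalytic sites and had the most reads of all members, had 908, 877, 949, 964 and 977 CPM in VENsens lines 1 to 5 and 967, 919, 962, 1002 and 976 CPM in VENins lines 1 to 5. VENsens line 2 was lowest and VENins line 4 highest, with most of the range shared. The fit gave log2 fold change 0.047 (SE 0.047), higher in 4 of 5 pairs (edgeR quasi-likelihood, Benjamini-Hochberg adjusted p = 0.66), and 0.025 with no line number in the model and without VENsens line 2.

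In the central stalk, whose rotation couples proton flow to ATP synthesis, the gamma subunit gene ATP5F1C had a log2 fold change of 0.14, higher in 5 of 5 pairs, and the delta subunit gene ATP5F1D 0.10. The latter rested on 1 library: ATP5F1D stood at 73.7 CPM in VENins line 5 and between 49.7 and 53.1 CPM in the other VENins lines, and its log2 fold change was -0.0075 without that line. ATP5F1E (ENSG00000124172), the epsilon subunit and the shortest protein of the list, had 103, 92.9, 107, 91.9 and 99.2 CPM in VENsens lines 1 to 5 and 119, 135, 137, 107 and 103 CPM in VENins lines 1 to 5. VENins lines 1, 2 and 3 lay above every VENsens line, whereas VENins lines 4 and 5 were below VENsens line 3. With means of 98.8 ± 6.51 CPM over VENsens and 120.1 ± 15.7 CPM over VENins lines (SD, n = 5), ATP5F1E had log2 fold change 0.27 (SE 0.066), higher in 5 of 5 pairs, and the smallest adjusted p of the members (edgeR quasi-likelihood, Benjamini-Hochberg adjusted p = 0.0878), with a range of 0.00194 to 0.49 over the other settings. Its pseudogenes held 82.5% of its own count, and with them added the log2 fold change was 0.28. Peripheral stalk genes, which keep the F1 head from turning, spanned 0.062 for ATP5PB, 0.17 for ATP5PO, 0.21 for ATP5PD and 0.24 for ATP5PF, and all but ATP5PB were higher in 5 of 5 pairs. Without line pair 2 these were 0.028, 0.10, 0.13 and 0.15.

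Subunit c, of which the proton-driven ring is built, is encoded by 3 genes that differ in the targeting peptide and give the same mature protein. ATP5MC1 (ENSG00000159199) had 60.3, 47.9, 64.1, 59.3 and 62.1 CPM in VENsens lines 1 to 5 and 59.9, 65.3, 60.2, 67.2 and 59.5 CPM in VENins lines 1 to 5. The groups overlapped and VENsens line 2 was far below the rest, with log2 fold change 0.092 (SE 0.074) and higher values in 2 of 5 pairs (edgeR quasi-likelihood, Benjamini-Hochberg adjusted p = 0.58), and 0.0053 without line pair 2. ATP5MC2 (ENSG00000135390) had 442, 379, 442, 405 and 409 CPM in VENsens lines 1 to 5 and 422, 455, 429, 420.1 and 472 CPM in VENins lines 1 to 5. Here too VENsens line 2 was lowest and the groups overlapped, with log2 fold change 0.083 (SE 0.058) and higher values in 3 of 5 pairs (edgeR quasi-likelihood, Benjamini-Hochberg adjusted p = 0.51), and 0.037 without line pair 2 and 0.052 without line pair 5. ATP5MC3 (ENSG00000154518) had 216, 192, 229, 217 and 228 CPM in VENsens lines 1 to 5 and 242, 241, 238, 235 and 227 CPM in VENins lines 1 to 5. VENins line 5 was below the highest VENsens line and the other VENins lines were above it, with log2 fold change 0.13 (SE 0.056) and higher values in 4 of 5 pairs (edgeR quasi-likelihood, Benjamini-Hochberg adjusted p = 0.28), and 0.081 without line pair 2 and 0.063 with transcript length and GC trends taken out. Per kilobase of transcript, ATP5MC2 made up 57.2 ± 1.30% of the level of the 3 genes over VENsens and 56.6 ± 1.72% over VENins lines (SD, n = 5). ATP5MC3 made up, in that order of groups, 31.1 ± 0.916% and 31.8 ± 1.31%, and ATP5MC1 11.7 ± 0.603% and 11.7 ± 0.720% (SD, n = 5). The order ATP5MC2, ATP5MC3, ATP5MC1 held in both groups, and the shares differed between groups by less than the spread between lines.

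The small membrane subunits of the ATP synthase, which sit where its dimers meet, all lay above the median of the complex, ATP5ME highest and ATP5MF and ATP5MG below ATP5F1E, ATP5PF and ATP5PD. ATP5ME (ENSG00000169020), subunit e, had 21.5, 17.7, 21.6, 18.6 and 20.1 CPM in VENsens lines 1 to 5 and 25.1, 28.8, 27.4, 23.7 and 19.4 CPM in VENins lines 1 to 5. VENins lines 1 to 4 were above every VENsens line, and VENins line 5 was below VENsens lines 1, 3 and 5. The means were 19.9 ± 1.72 CPM over VENsens and 24.9 ± 3.65 CPM over VENins lines (SD, n = 5), with the largest log2 fold change of the members, 0.31 (1.24-fold, SE 0.090), higher in 4 of 5 pairs (edgeR quasi-likelihood, Benjamini-Hochberg adjusted p = 0.12), and 0.22 without line pair 2. ATP5ME also had the fewest reads, and 61.6% of its exon bases are shared with MYL5 in GENCODE 29, so its count is uncertain. MYL5 itself stood at 21.2 ± 1.46 CPM over VENsens and 19.9 ± 3.06 CPM over VENins lines (SD, n = 5). ATP5MF and ATP5MG, subunits f and g, had log2 fold changes of 0.20 and 0.18 and were higher in 5 of 5 pairs, ATP5MF without overlap between groups. Without line pair 2 they stood at 0.13 and 0.12.

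ATP5IF1 (ENSG00000130770), the inhibitor that stops the enzyme from hydrolysing ATP, had 65.9, 61.2, 74.3, 68.1 and 70.1 CPM in VENsens lines 1 to 5 and 71.4, 87.3, 73.0, 72.0 and 79.5 CPM in VENins lines 1 to 5. VENins line 2 was well above the rest, and VENsens line 3 lay above VENins lines 1, 3 and 4. ATP5IF1 had log2 fold change 0.17 (SE 0.070), higher in 4 of 5 pairs (edgeR quasi-likelihood, Benjamini-Hochberg adjusted p = 0.25), and 0.088 without line pair 2. Per 100 counts of the beta subunit gene there were 7.26 ± 0.334 counts of ATP5IF1 over VENsens and 7.96 ± 0.935 over VENins lines (SD, n = 5), a ratio that overlapped between groups.

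Small accessory subunits were set against catalytic ones in complexes III and V, membrane anchors against catalytic subunits in complex II, and later against early accessory subunits in complex IV, whose catalytic subunits were not measured. In complex III the catalytic side was UQCRFS1 and CYC1 alone, since the mitochondrially encoded subunit MT-CYB was listed at 0 in every library. In complex V the small subunits had the larger difference in all 5 line pairs, and in complex III in 4 of 5. The mean log2 CPM difference of VENins minus VENsens over subunits e, f and g was 0.18, 0.53, 0.14, 0.23 and 0.081 in line pairs 1 to 5, and over the alpha and beta subunits 0.037, 0.064, -0.0025, 0.068 and -0.060. Small minus catalytic was therefore 0.14, 0.47, 0.14, 0.16 and 0.14, above 0 in 5 of 5 pairs, with a mean of 0.21 ± 0.14 (SD, n = 5 pairs). In complex III the mean was 0.030 ± 0.12, above 0 in 4 of 5 pairs and -0.18 in pair 5. Complex II anchors minus catalytic subunits gave 0.011 ± 0.077, above 0 in 3 of 5 pairs (SD, n = 5 pairs). In complex IV the later subunits minus COX4I1, COX5A and COX5B gave 0.031 ± 0.075, also in 3 of 5 pairs (SD, n = 5 pairs). For complexes II, III and IV the mean was smaller than the spread between pairs, and it took either sign over the other settings, with a lowest value of -0.0073, -0.010 and -0.011 and a highest of 0.084, 0.082 and 0.060. The complex V difference was 0.15 without line pair 2 and 0.10 with trends on exon length and GC content taken out. It was 0.071 with each library corrected for transcript length and GC content, a setting chosen after seeing the data. ATP5ME, 1 of the 3 small subunits, has an uncertain count, with 61.6% of its exon bases shared with MYL5. In pair 3 ATP5ME differed by 0.34, ATP5MF by 0.019 and ATP5MG by 0.057. In pair 5 these were -0.049, 0.17 and 0.12. The part of ATP5ME in the complex V difference was not tested. Split by protein length at 150 residues instead of by role, the 9 shorter complex V subunits exceeded the 7 longer ones by 0.083 ± 0.083, in 4 of 5 pairs.

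**Figure D4:**
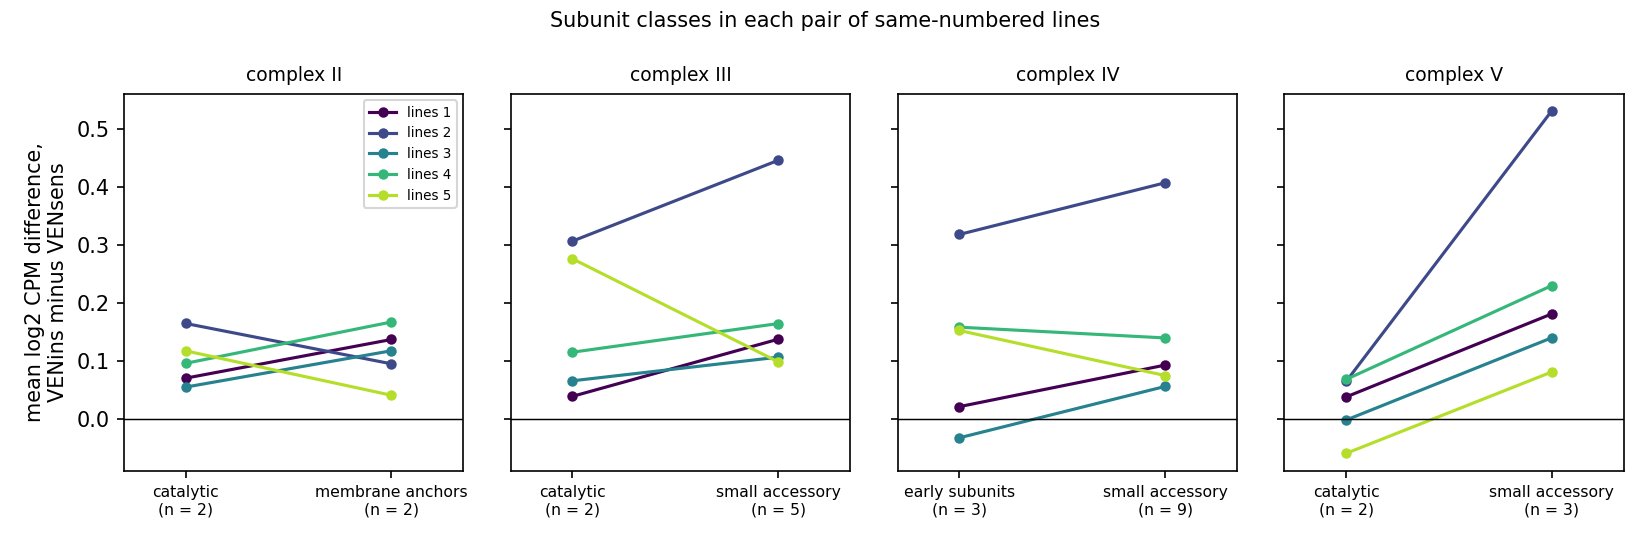
Mean log2 CPM difference of VENins minus VENsens (vertical axis) for the subunit classes of each complex, 1 line for each pair of same-numbered lines. In complex V all 5 lines climb from the catalytic to the small subunits, by 0.14 to 0.47, while in complexes II, III and IV some climb and some drop.

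Shorter proteins tended to have larger log2 fold changes, among the members and among the other genes. Across the 41 members, which share libraries and are not independent, Spearman's rho between the log2 fold change and protein length was -0.56. The same rho was -0.78 across the 16 members of complex V, -0.47 across the 9 of complex III and -0.31 across the 12 of complex IV. The 25 members of up to 150 residues had 24 log2 fold changes above 0 and a median of 0.18, beside a median of 0.10 and 77.5% above 0 for all 808 tested protein-coding genes of that length. The 16 longer members had a median of 0.11 with 15 above 0, beside -0.010 and 46.7% above 0 for 11120 tested genes. In proteins of up to 100 residues 7 of 13 members lay above the 75th percentile of all genes of that length, in those of 101 to 150 residues 6 of 12, and in those of 151 to 300 residues 7 of 10. Taking trends on exon length and GC content out of each library left a members' median of 0.14 with 41 of 41 above 0 and 2 called (UQCRB and ATP5F1E). In that fit 155 genes were called, of which 71 were higher and 84 lower. With transcript length in place of exon length the median was 0.10, 20 members had an unadjusted p under 0.05 and 1, UQCRB, was called, where 3087 of 16756 genes had such a p and 163 were called. Under that setting the log2 fold change was lower by over 1.5 times in SDHD (0.12 to 0.078), UQCRH (0.12 to 0.078), UQCR11 (0.10 to 0.063), COX5A (0.10 to 0.059), COX7A2 (0.19 to 0.12), COX7C (0.14 to 0.084), NDUFA4 (0.048 to 0.023), ATP5F1C (0.14 to 0.091), ATP5F1D (0.10 to 0.043), ATP5MC1 (0.092 to 0.044), ATP5MC2 (0.083 to 0.045) and ATP5MC3 (0.13 to 0.063). What part length has in the differences between members was not tested.

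**Figure D5:**
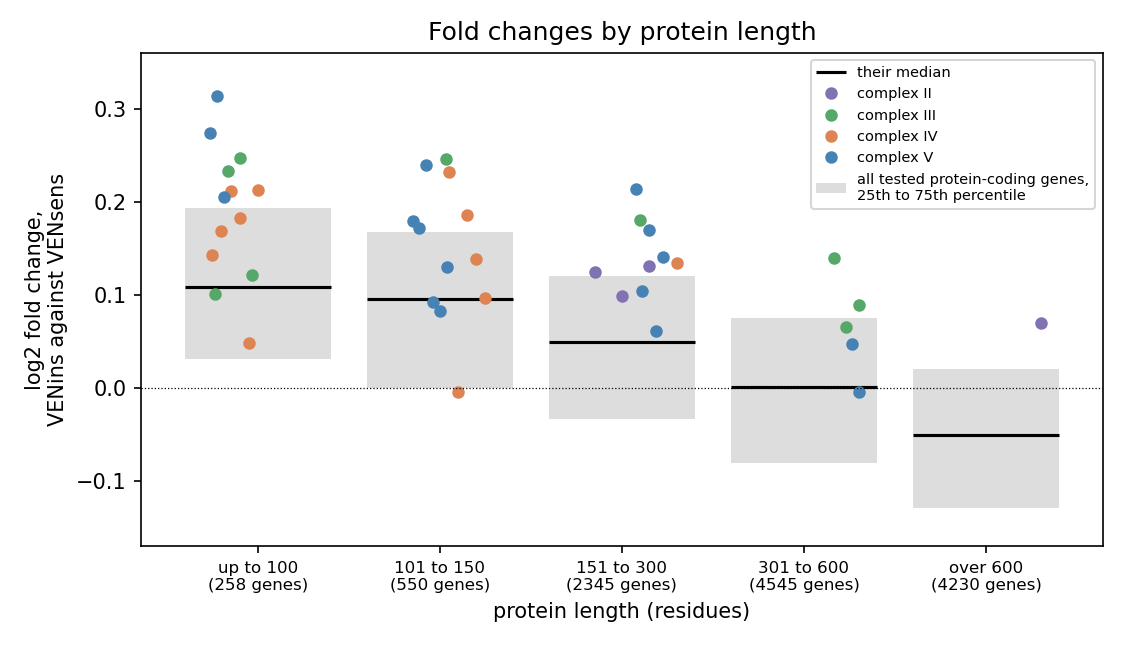
Log2 fold change of VENins against VENsens (vertical axis) by protein length in residues (horizontal axis): members as points coloured by complex, and all tested protein-coding genes as grey bars from the 25th to the 75th percentile with the median as a black line. The median of all genes goes from 0.11 for the shortest proteins to -0.050 for the longest, and most members lie above the median of their length class.

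Several members share sequence with other annotated genes, which makes their counts less certain. Annotated pseudogenes named after 28 members were in the count data, 104 in all, and for 12 members they held over 10% of the member's own count, from SDHC, ATP5F1A and UQCRFS1 to COX7A2 (43.7%), ATP5F1E (82.5%) and COX6A1 (199.9%). With these reads added to the members, 39 of 41 lay above 0, as before, and the median stayed at 0.14. For 12 members over 10% of the exon bases lie in another gene on either strand, among them ATP5ME, COX8A (34.5%), ATP5PO (25.4%), ATP5F1E (23.2%), ATP5PF (23.1%, with GABPA and JAM2) and UQCRQ (20.8%). The library kit does not mark strand.

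Among other genes of the pathway edgeR called 0 at an adjusted p under 0.05. Of 114 tested genes in lists of assembly factors, further subunits and isoforms, electron carriers, exchangers and complex I subunits, 89 lay above 0, where 51.1% of all tested genes did. At an unadjusted p under 0.05 edgeR had 36 higher, against 7.79% of all tested genes, and 0 lower. DESeq2 called 1 with the line number (ATPAF1) and 13 without it. In the fit without it, 2.14% of 16756 genes were called higher, a share that counts 4550 genes without an adjusted p. Assembly factors lay above 0 in 4 of 4 for complex II, 6 of 9 for complex III, 24 of 31 for complex IV and 5 of 5 for complex V, with medians of 0.061, 0.049, 0.078 and 0.13. CMC2, a factor in complex IV assembly, stood at 23.9 ± 1.94 CPM over VENsens and 28.6 ± 2.19 CPM over VENins lines (SD, n = 5), a log2 fold change of 0.26 (edgeR quasi-likelihood, Benjamini-Hochberg adjusted p = 0.10, higher in 5 of 5 pairs). ATPAF1, a chaperone for the F1 beta subunit, stood at 50.5 ± 1.79 CPM over VENsens and 62.0 ± 9.46 CPM over VENins lines (SD, n = 5), a log2 fold change of 0.29 (edgeR quasi-likelihood, Benjamini-Hochberg adjusted p = 0.10, higher in 4 of 5 pairs). ATP5MJ and ATP5MK, small ATP synthase subunits outside the list of 41, had log2 fold changes of 0.19 and 0.16, close to ATP5MF and ATP5MG.

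Electron carriers, the genes for ubiquinone synthesis, cytochrome c and electron-transfer flavoproteins that feed or link the complexes, did not lean one way: 7 of 15 lay above 0, with a median of -0.0059. Cytochrome c itself, CYCS, which carries electrons from complex III to complex IV, had a log2 fold change of 0.20 (edgeR quasi-likelihood, Benjamini-Hochberg adjusted p = 0.18, higher in 4 of 5 pairs). Among genes for the exchange of ATP, ADP and phosphate 7 of 7 tested lay above 0 (median 0.13), with the outer-membrane channel genes VDAC3 at 0.19 and VDAC1 at 0.21. At an unadjusted p under 0.05 were 3 of them, where 7.79% of all tested genes were higher at such a p. Of the tissue or paralogous isoforms 4 had enough reads to be tested, and all lay above 0, NDUFA4L2 at 0.49 and UQCRHL at 0.14. NDUFA4L2, the paralogue of NDUFA4, was spread widely between lines (edgeR quasi-likelihood, Benjamini-Hochberg adjusted p = 0.26, higher in 3 of 5 pairs). Complex I subunits, which complete the chain, had 30 of 37 genes above 0. Their median was 0.13, close to the 0.14 of complexes II to V. Of the complex I subunits 16 were higher at an unadjusted p under 0.05, as were 7.79% of all tested genes. That p was smallest in NDUFB2 (log2 fold change 0.24) and NDUFS6 (0.25).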

How the data were processed

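The deposited files hold raw counts of reads per Ensembl gene for 10 libraries, 5 per condition. The authors' notes name bcl2fastq 2.20.0.422, Bowtie2 2.3.5.1, SAMtools 1.9 and HTSeq 0.9.1 with hg19 and GRCh37. The strand setting and the annotation release used for counting are not stated, and 5 summary lines per file were left out of the counts. Low alignment quality took 24.6 to 26.2% of the reads in a library, and 3.69 to 3.98% fell on more than 1 gene.

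Genes were kept by filterByExpr (minimum count 10, minimum total 15), scaled by TMM and fitted in edgeR 4.0.16 (R 4.3.3, limma 3.58.1) with the line number as a replicate block, and VENins was tested against VENsens by quasi-likelihood with Benjamini-Hochberg adjustment over all tested genes. Log2 CPM used a prior count of 2. Called means an adjusted p under 0.05, read off the table of all genes. DESeq2 1.42.0, tables in Python 3.11.15 with pandas 2.3.3 and numpy 2.4.6, and plots in matplotlib 3.10.9 complete the tools. The steps were tested on simulated data. Names, gene types, lengths and overlaps came from GENCODE 29, which named 52526 of the 63677 identifiers, and protein lengths from its coding sequences. Its coordinates belong to another build than the counts, so none are given for genes. Promoter windows came from RefSeq.

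Alternatives were no block, DESeq2 with the block and without it, size factors by RLE, library size alone, no filter, at least 10 counts in every library, leaving out each line pair, taking out length and GC trends by natural splines with 4 degrees of freedom, and adding pseudogene counts. Trends on transcript length, and leaving out VENsens line 2, VENins line 2 or VENins line 5 without the block, were added after seeing the data.

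Values in every library were given for the catalytic subunits, COX4I1, ATP5IF1, the subunit c genes, COX7A2, COX7A2L, members at or under a log2 fold change of 0, and in complexes III to V the 2 members with the smallest p (1 in complex II). Members and lists were chosen with earlier results of these data known.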

Additional observations from a re-analysis of the deposited data

Results flagged for a closer look

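In 8 members 1 library lay far from the other 4 of its group, by Dixon's ratio of gap to range above 0.71. With independent groups, chance alone would give about 1 in 20, or 4.2 of the 84 groups compared. The groups share the same 10 libraries, so they are not independent and the 2 counts cannot be weighed against each other. Those groups were the 41 members and the members' share of gene counts, each in both conditions, and the share had no such library. VENins line 5 was high for SDHA, at 155 CPM with the other VENins lines between 134 and 139.8 CPM, for UQCRC1, at 139 CPM with the others between 114 and 119.9 CPM, for CYC1, at 294 CPM with the others between 236 and 246 CPM, and for ATP5F1D, at 73.7 CPM with the others between 49.7 and 53.1 CPM. VENsens line 2 was low for UQCRQ, at 56.9 CPM with the other VENsens lines between 70.1 and 76.3 CPM, for COX8A, at 85.9 CPM with the others between 113 and 121 CPM, and for ATP5MC1, at 47.9 CPM with the others between 59.3 and 64.1 CPM. VENins line 2 was high for COX7C, at 336 CPM with the others between 276 and 291 CPM.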

How the results depend on the processing

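Over the 18 other settings 38 to 41 of the 41 members lay above 0, and their median log2 fold change ran from 0.10 to 0.17. The number of members called, 0 with edgeR and the line number as a block, was 2 with DESeq2 and the block, 13 with DESeq2 and no block, 9 with no filter on low counts, 2 with length and GC trends taken out, 1 with transcript length and GC trends taken out, and 7 with no block and without VENins line 5. Calls over all genes, 33 with the block, were 149 with no replicate block, 217 and 739 with DESeq2 with and without the block, 664 with no filter, 155 and 163 with the length and transcript length trends taken out, and 502 with no block and without VENins line 5. Leaving out 1 line pair gave 6 to 331 calls over all genes, and 12 to 23 members at an unadjusted p under 0.05 against 27 with all pairs. The cause was not tested.

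Values near 0 changed sign. The log2 fold change of COX7A2L was 0.016 with length and GC trends taken out, 0.020 with no block and without VENins line 5, and -0.037 to 0.031 without single line pairs. That of ATP5F1A was 0.066 and 0.039 with length and transcript length trends taken out, 0.0031 and 0.0076 with no block and without VENins line 2 or line 5, and -0.026 to 0.025 without single line pairs. NDUFA4 ran from -0.0075 to 0.10 and ATP5F1D from -0.0039 to 0.18 without single line pairs, and ATP5F1D was -0.0075 with no block and without VENins line 5. The cause was not tested. Of the members' own fold changes under these settings, 691 kept their direction and their side of the threshold, 34 kept their direction and passed it, and 13 changed direction.

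The line numbers did not pair libraries beyond their condition: the correlation of deviations from the group mean across genes was -0.10, 0.028, -0.017, 0.0094 and -0.080 for lines 1 to 5 of the same number. The fewest reads of a member in a library were 365, for ATP5ME.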

Other observations

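Several subunit isoforms known from other tissues had few reads or none over all 10 libraries: COX6B2, the testis form of COX6B1, had 38, COX8C, a testis form of COX8A, had 403, and ATP5MGL, a copy of ATP5MG, had 498. COX8C and ATP5MGL had enough reads for the test, with log2 fold changes of 0.22 and 0.15 (edgeR quasi-likelihood, Benjamini-Hochberg adjusted p = 0.54 and 0.69, higher in 4 and 3 of 5 pairs), each called by neither edgeR nor DESeq2.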
